A study of Mus musculus with 11 samples.

Results

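The genes described here encode the oxidative phosphorylation machinery of germinal center B cells. They were taken as the deposited genes whose symbols start with Nduf, Uqcr, Atp5, Cox4 to Cox8, mt-Nd, mt-Co, mt-Cyb or mt-Atp, or are Sdha, Sdhb, Sdhc or Sdhd. Symbols with -ps were left out, and members were selected on measured level, a mean normalized read count of at least 100 over the 11 libraries. A matching symbol was found for 118 of the 48593 deposited genes, 9 of these carried -ps, 14 fell under the mean of 100, and 95 were members. The nuclear genome encodes 86 of them, and the mitochondrial genome encodes 9.

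The libraries were RNA sequencing of germinal center B cells from mouse spleen, sorted as B220+, PNA+ and CD95+ cells on day 12 after injection of sheep red blood cells into the peritoneum. The 5 WT mice were Crebbp+/+;Ep300+/+;Cg1cre/+, the 3 Crebbp-KO mice Crebbp fl/fl;Ep300+/+;Cg1cre/+, and the 3 Ep300-KO mice Crebbp+/+;Ep300 fl/fl;Cg1cre/+. The comparison asks how germinal center B cells change when either of a pair of related lysine acetyltransferases, CBP (Crebbp) or p300 (Ep300), is lost. All 3 groups carry the Cg1cre allele, a Cre recombinase driven from the Cg1 locus that acts in germinal center B cells, so the controls carry Cre too. The labels place the WT mice in litters of the Crebbp cross and place none in a litter with Ep300-KO mice. A difference between Ep300-KO and WT therefore cannot be told apart from a difference between breeding colonies. Sex, batch and which of the mice share a litter are not given. The p-values below set a difference between groups against the spread between libraries of the same group.

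Oxidative phosphorylation passes electrons from NADH through complex I (NADH dehydrogenase) and from succinate through complex II (succinate dehydrogenase) to ubiquinone. Complex III (cytochrome bc1) hands them on by way of cytochrome c to complex IV (cytochrome c oxidase), which reduces oxygen, and complex V (ATP synthase) uses the resulting proton gradient to make ATP. Complex II is built from nuclear genes alone, and the other complexes combine nuclear with mitochondrial subunits, so both genomes have to supply parts. Germinal center B cells divide fast and use oxidative metabolism heavily.

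The nuclear members comprised 36 subunit genes of complex I, 8 assembly factors of complex I (Ndufaf genes), 4 genes of complex II, 8 of complex III, 13 of complex IV and 17 of complex V. Ndufa4 was placed in complex IV, where its protein is found. The mitochondrial members were 6 genes of complex I (mt-Nd1 to mt-Nd6 without mt-Nd4l) and 3 of complex IV (mt-Co1, mt-Co2 and mt-Co3). The only mitochondrial gene of complex III carries the symbol mt-Cytb in the table, which the prefix mt-Cyb does not match, so its values are given beside the members. Just inside the mean of 100 were mt-Nd3 (149), mt-Co3 (155), Cox6c2 (175) and mt-Co2 (178). Just outside were Cox6b2 (98.0), mt-Atp6 (83.6) and Cox7a1 (83.1).

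The mitochondrial genes beside this threshold have a feature of their sequence in common. Annotated nuclear copies of mitochondrial genes lie next to each other on the minus strand of chr1. The starts of mt-Co2 and mt-Nd3 and of their copies, taken from the GRCm38 genome, show how alike they are. The 61 bases of mt-Co2 begin at the start codon, and no base differs from the copy. In mt-Nd3 the base in capitals is the single difference over the whole aligned gene, T3C, counted from 1 at the gene's 5′ end with the mitochondrial base first.
mt-Co2 (chrM:7013-7073, plus strand): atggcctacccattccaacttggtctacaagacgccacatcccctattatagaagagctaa
Gm28661 (chr1:24615505-24615565, minus strand): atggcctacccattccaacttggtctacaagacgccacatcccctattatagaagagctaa
mt-Nd3 (chrM:9459-9519, plus strand): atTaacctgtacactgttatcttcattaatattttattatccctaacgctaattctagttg
Gm28438 (chr1:24613059-24613119, minus strand): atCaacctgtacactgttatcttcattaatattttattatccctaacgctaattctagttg

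The copy of mt-Co2 matched it over 681 bases with 0 mismatches, and that of mt-Co3 (Gm28437) over 783 bases with 0. The copies of mt-Atp6 (Gm10925) and mt-Nd4l (Gm10222) matched over 678 and 294 bases, also with 0 mismatches. When each gene was divided into overlapping windows of 50 bases, 98.0% to 100% of the windows of mt-Co2, mt-Co3, mt-Nd3, mt-Atp6 and mt-Nd4l occurred in another annotated transcript. These 5 genes had means of 47.3 to 178 over the 11 libraries. No window was shared for mt-Nd1, mt-Nd6 and mt-Cytb, whose means were 295171, 78272 and 423711.

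mt-Co1 and mt-Nd4 lay between, with 51.1% and 62.2% of windows shared and means of 967588 and 142620. The copies themselves were low, from 5.31 for Gm28438 to 103 for Gm10925. mt-Atp8 is an exception, with no shared window and a mean of 18.4. Transcripts of a mitochondrial genome are made as long precursors, and the protein products of mt-Co1, mt-Co2 and mt-Co3 form the core of the same complex. The gap between mt-Co1 and the other 2 is therefore reported with its sequence sharing, and whether the counting of reads with several matching places made it was not tested. Levels and changes of mt-Co2, mt-Co3 and mt-Nd3 are uncertain for this reason. The levels of mt-Co1 and mt-Nd4, and so their rank among the mitochondrial genes, are uncertain too. The mitochondrial genes are summarised below also over the 6 members with a mean of at least 1000.

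**Figure D1:**
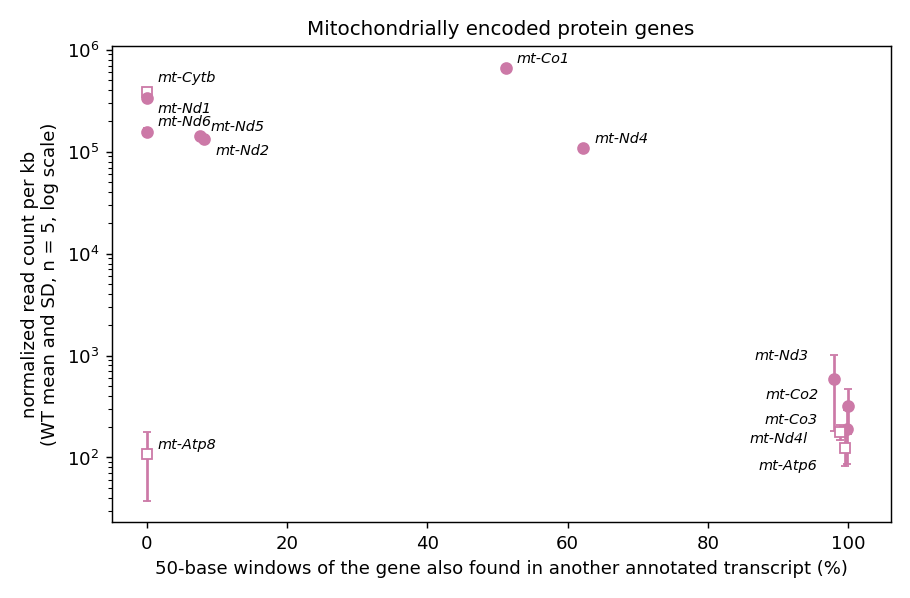
Level of the mitochondrially encoded protein genes in WT (y axis, normalized read count per kilobase, log scale, mean and SD of 5 libraries) against the share of their 50-base windows found in another annotated transcript (x axis, percent). Filled circles are members and open squares are not; the genes with 98.0% or more of windows shared sit at the bottom right, with mt-Atp8 low at 0%.

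In WT cells the level per kilobase of exon spanned a wide range. The length counts every base annotated as exon in any transcript of a gene, such as 5628 for Ndufb2. Ranks between genes and complexes therefore depend on the annotation as well as on the reads. mt-Co1, the catalytic subunit of complex IV, had 656935 ± 12288 normalized reads per kilobase (SD, n = 5), and mt-Nd1, a core subunit of complex I at the ubiquinone site, had 333009 ± 26074. mt-Cytb, the cytochrome b of complex III, had 382420 ± 15277. The other 4 abundant mitochondrial members lay between 108040 (mt-Nd4) and 157660 (mt-Nd6). The kit does not keep the strand, and mt-Nd6 lies on the strand opposite to its neighbours, so reads from either strand of that stretch cannot be told apart.

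The highest nuclear members were Atp5a1, the alpha subunit of the catalytic head of ATP synthase, at 28917 ± 1621 per kilobase, and Atp5b, its beta subunit, at 20956 ± 1286. The small subunit Cox8a led complex IV at 17531 ± 847, Uqcr10 led complex III at 9904 ± 562, Ndufb11 led complex I at 6881 ± 426, and Sdhb led complex II at 5643 ± 282. By complex, the median nuclear member had 5718 per kilobase in complex IV, 5416 in complex II, 4996 in complex III, 4787 in complex V and 2319 in complex I. Assembly factors, which are not part of the finished complex, had a median of 439.7, and the highest of them, Ndufaf1, had 1074 ± 51.8. The median of all 16417 tested genes with a length was 324.4 per kilobase, and the nuclear median of each complex lay well above it. Single members lay below it: Ndufb2 (311.3), Atp5s (306.4), the assembly factor Ndufaf2 (248.7), mt-Co2 (318.1) and mt-Co3 (189.4). These comparisons are a description, since a minimum level chose the members.

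**Figure D2:**
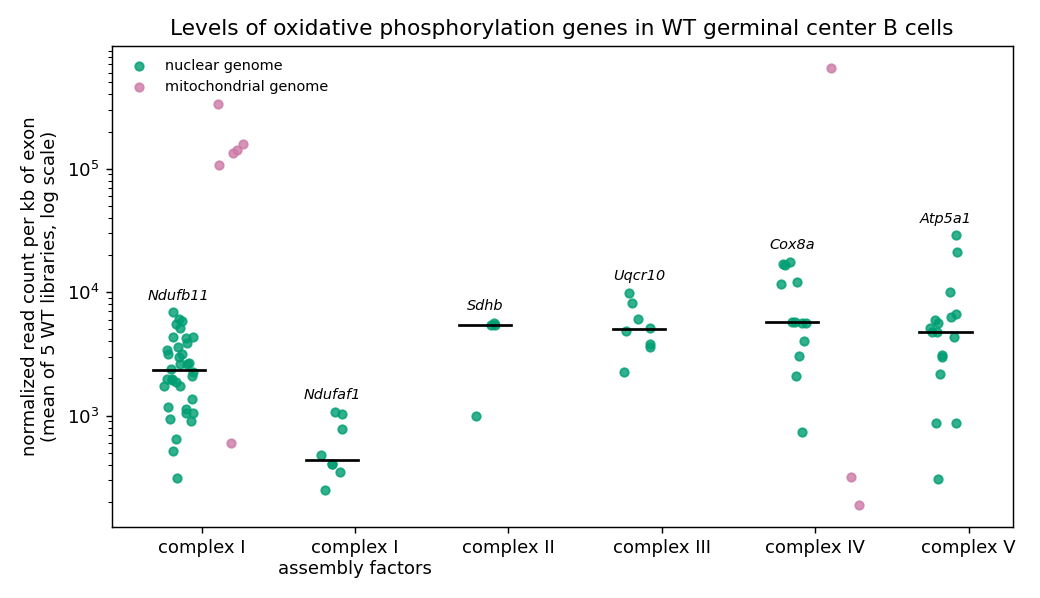
Level of each member in WT (y axis, normalized read count per kilobase of exon, mean of 5 libraries, log scale) by complex (x axis), with nuclear members in green, mitochondrial members in pink and bars at the nuclear medians. The highest nuclear member of each complex is named, and Atp5a1 at 28917 is the highest of all 86.

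Several subunits exist as a widely used and a tissue-restricted form, and these cells carried the widely used form in each pair examined. Cox4i2, the lung form of subunit 4, had 24 reads summed over the 5 WT libraries, 7 over Crebbp-KO and 0 over Ep300-KO. Cox6a2 and Cox8b, the heart and muscle forms, had 8 and 2 reads over WT, beside Cox6a1 and Cox8a at 11574 ± 353 and 10852 ± 524 normalized reads. Per kilobase, Cox7a2 exceeded the muscle form Cox7a1 by a median of 35.3-fold in WT, Cox6b1 exceeded the testis form Cox6b2 by 203-fold, and Ndufa4 exceeded Ndufa4l2 by 597-fold. Cox7a2l, a relative of Cox7a2 that takes part in supercomplex assembly, was 2.08 ± 0.16 times as abundant per kilobase as Cox7a2 in WT. That ratio was 1.96 ± 0.18 in Crebbp-KO and 2.18 ± 0.25 in Ep300-KO, with ranges that overlapped.

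The genes Atp5g1, Atp5g2 and Atp5g3 all encode the same mature c subunit, which forms the rotor ring of ATP synthase. Atp5g3 gave the largest share of their summed level per kilobase. It gave 53.5%, 53.2%, 54.3%, 55.1% and 54.8% in the 5 WT libraries, 56.8%, 57.1% and 56.2% in Crebbp-KO, and 52.5%, 52.4% and 52.5% in Ep300-KO. The 3 groups did not overlap: the share was highest in Crebbp-KO and lowest in Ep300-KO, at means of 56.7% ± 0.46, 54.2% ± 0.78 and 52.5% ± 0.08 for Crebbp-KO, WT and Ep300-KO (SD). Atp5g2 mirrored it, at 36.7% ± 0.88, 38.7% ± 0.64 and 40.5% ± 0.45, and Atp5g1 gave 6.65% to 7.08% on average. The size of each share depends on the exon length used, 4912 bases for Atp5g1, 1675 for Atp5g2 and 2181 for Atp5g3. Before division by length their WT means were 4302, 8018 and 14597 normalized reads. No test was made of these shares, which were looked at with other results known, and 38.3% of the Atp5g2 windows occur in another transcript.

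The targeted genes were read before the comparisons. Ep300 had 14466 ± 600.4 normalized reads in Ep300-KO against 21268 ± 1276 in WT, a log2 change of -0.55 (SE 0.06; adjusted p = 0.00015 in limma). Crebbp had 8247 ± 612 in Crebbp-KO against 8866 ± 743 in WT (-0.10, adjusted p = 0.46), and since the counts cover whole genes rather than the deleted exons this does not check the label. All 12 germinal center B cell markers were present in each group. They summed to 514968 to 629393 in Crebbp-KO, 590200 to 647503 in WT and 600069 to 655853 in Ep300-KO. Naive or memory B cell markers summed to 29637 to 40849 in Crebbp-KO, 30943 to 56482 in WT and 39903 to 52515 in Ep300-KO. For both lists the range of each knockout overlapped that of WT. The summed plasma cell markers were 68255 to 81273 in Ep300-KO against 52903 to 62833 in WT, T cell markers 4613 to 5928 against 9001 to 11208, and macrophage markers 2414 to 3238 against 3506 to 9378. The highest macrophage sum, 9378, was that of WT_46. In Crebbp-KO the plasma, T cell and macrophage sums were 54524 to 64631, 4868 to 6001 and 1969 to 2879. Of the 9 T cell markers only 4 reached a mean of 10 over the 11 libraries, so that sum rests on few genes. Cd3e was at 0 in Crebbp-KO. Of the 5 markers of stroma and endothelium, 2 reached a mean of 10 and Col3a1 was at 0, so their sum rests on few genes. The sums did not overlap between the groups, at 4512 to 5001 in Ep300-KO, 3348 to 4266 in WT and 2885 to 3012 in Crebbp-KO. The library Ep300-KO_18 held both Xist and Y-linked transcripts (98751 and a sum of 9852), whereas the other 10 held one or the other at a high level. Whether this library holds cells of more than 1 mouse was not tested. The part of these differences in the results below was not tested, and calls of named genes lost without Ep300-KO_18 or WT_46 are given beside the results. Statements on whether groups overlap refer to the deposited scale. Neutrophil markers summed to 0 to 11.6.

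Loss of Crebbp left the module without a called gene. A gene was called at a Benjamini-Hochberg adjusted p below 0.05 over all 16515 genes tested in limma, and 0 of the 95 members passed for Crebbp-KO against WT. Of all genes, 8.36% were called in this comparison, 3.48% higher and 4.88% lower. At an unadjusted p below 0.05 there were 6 of 95 members, against 3730 of the 16515 genes. Those 6 were Uqcrb, Ndufa3, Cox6a1 and Ndufs1 with higher means and Sdhb and Ndufs8 with lower means. edgeR called 0 members, and DESeq2 called 2, Uqcrb and Ndufa3. In bulk RNA, fewer cells of a type and less RNA per cell cannot be told apart, here and in what follows.

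The 2 members nearest to the threshold had higher values in every Crebbp-KO library than in any WT library. Uqcrb, a subunit of complex III, had 3120 to 3590 normalized reads in WT and 4115, 3928 and 3713 in Crebbp-KO (log2 difference 0.23, SE 0.07; adjusted p = 0.076). It was 4024, 3338 and 4096 in Ep300-KO, overlapping WT, and 25.5% of its windows occur in another transcript. Ndufa3, an accessory subunit of complex I, had 2633 to 2910 in WT and 3212, 3068 and 3058 in Crebbp-KO (0.19, SE 0.06; adjusted p = 0.083). Without Ep300-KO_287, which also enters the estimate of the spread, Uqcrb was called in Crebbp-KO (0.23, SE 0.06; adjusted p = 0.031 in limma). These 2 genes were singled out after their values were seen.

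The median log2 difference between Crebbp-KO and WT was 0.04 over the 86 nuclear members and -0.07 over the 6 abundant mitochondrial members, beside 0.01 over all genes. The nuclear medians were similar across complexes, at 0.05 for complex I, 0.03 for its assembly factors, 0.07 for complex II, 0.03 for complex III, 0.04 for complex IV and 0.06 for complex V. All 6 abundant mitochondrial members had lower means in Crebbp-KO, from -0.09 for mt-Nd4 to -0.02 for mt-Nd2, and none was called or had an unadjusted p below 0.05 in limma. With quantile normalization mt-Nd2 (0.04) and mt-Nd4 (0.01) were higher instead, and with equal sums over nuclear genes mt-Nd2 stood at 0.00178. The median standard error of a single member was 0.07.

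Loss of Ep300 came with 5 called members of 95, 1 higher and 4 lower. The shares of all genes called in that comparison were 11.9% in all, 5.84% higher and 6.09% lower, so the members' count of 5 of 95, 5.26%, lay below the background. The called genes belong to different complexes. They were Ndufa6 and Ndufa11 and mt-Nd1 of complex I, Sdhb of complex II and Uqcrq of complex III. None of the 13 nuclear genes of complex IV or the 17 of complex V was called in limma. At an unadjusted p below 0.05 there was 1 of each, Cox8a and Atp5e. At that threshold in limma there were 16 of all 95 members, 16.8%, and 4247 of the 16515 genes, 25.7%. edgeR and DESeq2 also called 0 of the nuclear genes of complex IV and complex V. Of all 95 members edgeR called 5, the same genes as limma, and DESeq2 called 9.

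In limma on the deposited values of all 11 libraries, Ndufa6 was the only member called higher. It encodes an accessory subunit of the matrix arm of complex I. Its normalized read counts were 3335, 3219, 3034, 3163 and 3004 in WT, 3252, 3214 and 3305 in Crebbp-KO, and 4066, 3600 and 3938 in Ep300-KO. The Ep300-KO values lay above all others, and the WT and Crebbp-KO values overlapped. The log2 change was 0.29 (SE 0.06) against WT, 1.23-fold, with an adjusted p of 0.0057 in limma. It was called whichever single library was left out, with log2 changes of 0.26 to 0.35.

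Ndufa6 lies on chr15 (GRCm38, chr15:82350140-82354322, minus strand), 0.70 Mb from Ep300 itself. This neighbourhood was examined after the gene's values had been seen. Of the 39 genes tested within 1 Mb of Ep300, the window that holds Ndufa6, 5 were called between Ep300-KO and WT, 12.8%, near the 11.9% over all genes, and 5 were also called between Crebbp-KO and WT. Within 2 Mb 19 of 76 were called between Ep300-KO and WT, 25.0%, of which 6 were higher, and 8 between Crebbp-KO and WT, 10.5% against 8.36% over all genes. Within 5 Mb the share for Ep300-KO against WT was 41 of 163, 25.2%. A knockout locus can bring along the chromosome around it from the strain in which it was made. Whether the difference in Ndufa6 comes from such linked sequence or from the loss of p300 cannot be told apart here. The next member on chr15, Atp5g2, lies 21.0 Mb from Ep300.

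The called nuclear genes that fell had values below every WT library in all 3 Ep300-KO libraries, but the calls rested on 1 of them. Ndufa11, an accessory subunit of the membrane arm of complex I, had 3561, 3535, 3353, 3394 and 3527 in WT, 3403, 3451 and 3396 in Crebbp-KO, and 2961, 2514 and 3119 in Ep300-KO. The Ep300-KO values were below all others, and the log2 change against WT was -0.28 (SE 0.07; adjusted p = 0.016). Sdhb, the iron-sulfur subunit of succinate dehydrogenase, had 12922, 13358, 11733, 12286 and 12876 in WT, 10933, 11995 and 11461 in Crebbp-KO, and 10917, 9885 and 10812 in Ep300-KO.

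For Sdhb the 3 groups formed a staircase, with Ep300-KO below every WT and every Crebbp-KO library and Crebbp-KO overlapping WT by 1 library. The log2 change in Ep300-KO against WT was -0.26 (SE 0.06; adjusted p = 0.010), and that in Crebbp-KO was -0.14 (adjusted p = 0.16). Uqcrq, a small subunit of complex III, had 4175, 4417, 3905, 4112 and 4189 in WT, 3716, 4070 and 3736 in Crebbp-KO, and 3629, 2939 and 3755 in Ep300-KO. Ep300-KO lay below WT throughout and overlapped Crebbp-KO, with a log2 change against WT of -0.28 (SE 0.08; adjusted p = 0.035). The library Ep300-KO_287 was the lowest of the 11 for each of these 3 genes. Without it the log2 changes were -0.19 for Ndufa11 (adjusted p = 0.057), -0.22 for Sdhb (0.051) and -0.17 for Uqcrq (0.14), and none was called. The call of Uqcrq was also lost without WT_41, WT_4 or WT_288. Without Ep300-KO_287 the called members were Ndufa6, mt-Nd1 and Uqcrb, the last higher in Ep300-KO at a log2 change of 0.29 (SE 0.07; adjusted p = 0.025).

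mt-Nd1 was the only mitochondrial gene called. It had 288372, 306017, 338847, 349391 and 310825 normalized reads in WT, 288626, 297735 and 323391 in Crebbp-KO, and 232594, 284485 and 226599 in Ep300-KO. All 3 Ep300-KO values were below all others, with a log2 change against WT of -0.37 (SE 0.09; adjusted p = 0.017). Here Ep300-KO_287 was the highest of the 3, the opposite of its place among the nuclear genes. The call was lost without Ep300-KO_18 (adjusted p = 0.077) or Ep300-KO_289 (0.085). With quantile normalization it was lost as well (0.078), and mt-Nd5 was called instead (-0.22, adjusted p = 0.021).

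The other abundant mitochondrial genes had lower means in Ep300-KO as well, and none passed the adjusted threshold in limma. Of the 6 abundant members, mt-Nd1 included, 4 had an unadjusted p below 0.05 in limma, 66.7% against 25.7% of all genes. mt-Co1 had 993098 to 1032069 in WT, 984045, 987949 and 938676 in Crebbp-KO, and 894651, 918944 and 844378 in Ep300-KO. Its 3 groups did not overlap, with a log2 difference between Ep300-KO and WT of -0.20 (SE 0.06) and an adjusted p of 0.052. As a share of all deposited values mt-Co1 in Ep300-KO was still below all WT libraries, but Crebbp-KO overlapped both groups: WT_4 (1.25%) lay below Crebbp-KO_53 (1.28%) and Crebbp-KO_55 (1.29%), and Ep300-KO_287 lay just above Crebbp-KO_1 (both 1.23%). DESeq2 on the whole reads called mt-Co1 and mt-Nd4 beside mt-Nd1. The log2 difference was -0.21 for mt-Nd2, -0.14 for mt-Nd4, -0.14 for mt-Nd5, -0.15 for mt-Nd6 and -0.12 for mt-Cytb. Over the 6 abundant members the median was -0.18, beside -0.06 over the 86 nuclear members and -0.01 over all genes.

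**Figure D3:**
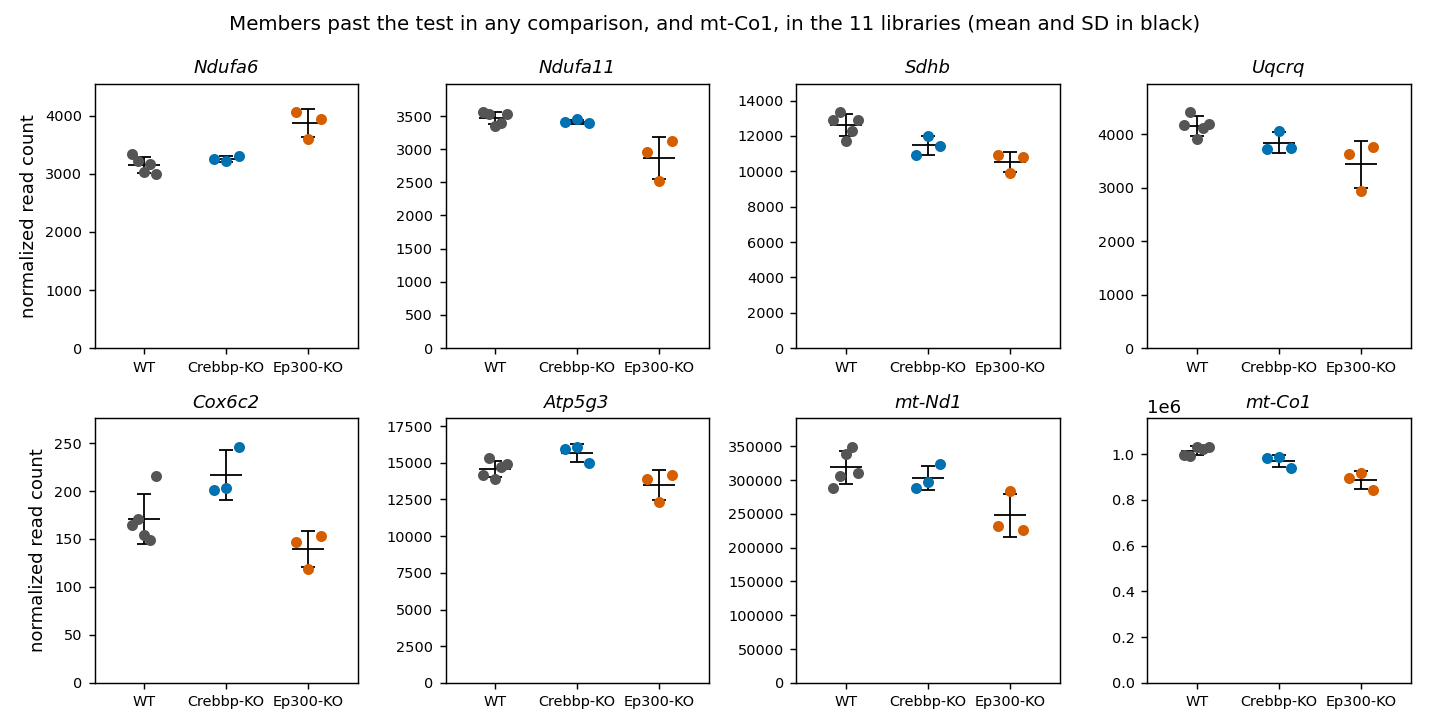
Normalized read count (y axis, starting at 0) of the 7 members called in any comparison and of mt-Co1 in each library, by group, with mean and SD in black. Ep300-KO points lie above all others for Ndufa6 and below all WT points for Ndufa11, Sdhb, Uqcrq, mt-Nd1 and mt-Co1.

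Between the knockouts themselves, 4 members were called, 3 higher in Crebbp-KO and 1 lower. The shares of all genes were 9.42% called, 4.79% higher and 4.63% lower. Ndufa11 was higher in Crebbp-KO by 0.26 on the log2 scale (SE 0.07; adjusted p = 0.046) and Ndufa6 was lower, at -0.25 (SE 0.06; adjusted p = 0.032). Atp5g3, the c subunit gene described above, had 15942, 16097 and 14956 in Crebbp-KO and 13925, 12314 and 14196 in Ep300-KO, with WT at 13904 to 15296 overlapping both. It was higher in Crebbp-KO by 0.22 (SE 0.06; adjusted p = 0.048).

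Cox6c2 had the largest difference, 0.63 (SE 0.18; adjusted p = 0.045), at 201, 203 and 246 in Crebbp-KO and 147, 118 and 154 in Ep300-KO. The annotation lists it as a processed pseudogene of 231 bases, and 52.7% of its windows occur in Cox6c, whose level was 7475 ± 362 in WT, and whether reads of Cox6c are counted in it was not tested. Cox6c itself differed by 0.14 (SE 0.08; adjusted p = 0.28). The calls of Atp5g3, Cox6c2 and Ndufa11 were each lost when any 1 of 9 or 10 of the 11 libraries was left out, and that of Ndufa6 when any 1 of 5 was. Their adjusted p-values were then at most 0.16. Without Ep300-KO_18 all 4 calls were lost, at 0.077 for Atp5g3, 0.087 for Cox6c2, 0.077 for Ndufa11 and 0.11 for Ndufa6. Of the 86 nuclear members, 76 had a higher mean in Crebbp-KO than in Ep300-KO, with a median of 0.10, and the median without Ep300-KO_287 was 0.01.

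**Figure D4:**
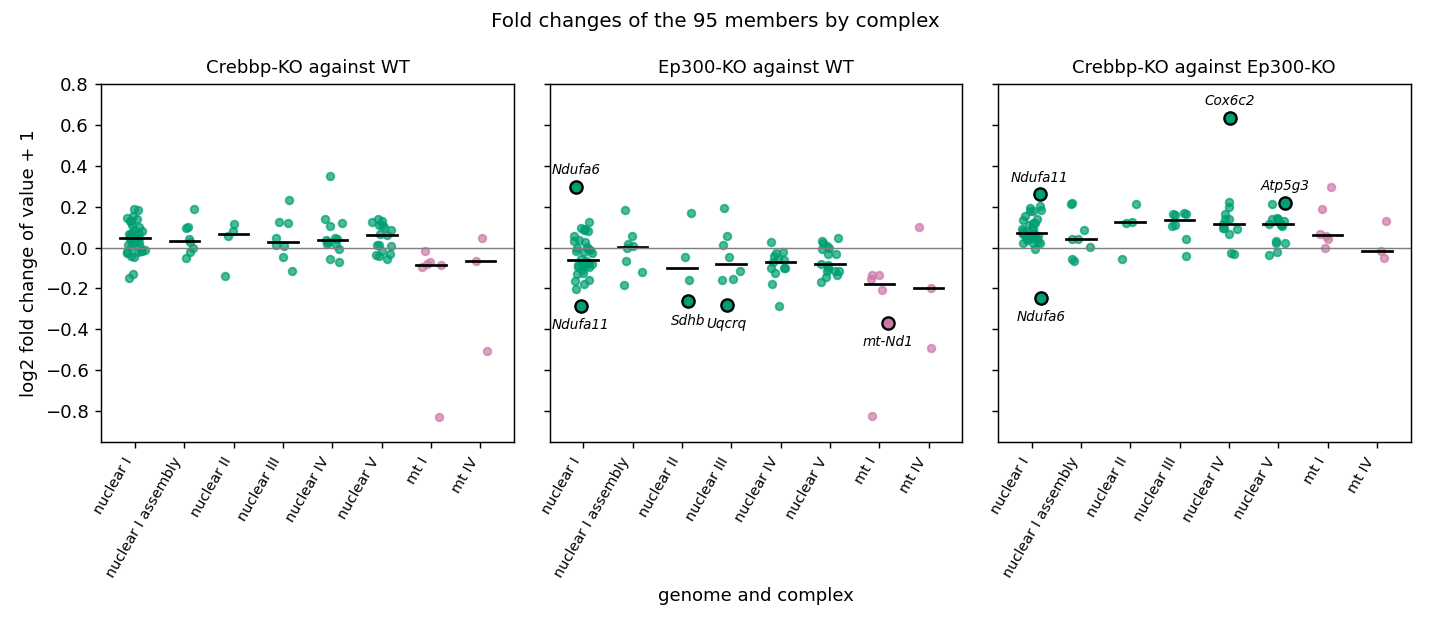
Log2 fold change of the value plus 1 (y axis) for each of the 95 members, by genome and complex (x axis), in the 3 comparisons; outlined, named points were called and bars are medians. Most points lie within 0.3 of 0, and the mitochondrial genes (pink) have negative medians against WT.

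The nuclear members moved as a block from library to library. To show this, each gene's log2 value was set against its mean in WT and the median taken over the 86 nuclear members in each library. In WT it was -0.01, 0.10, -0.06, -0.02 and -0.01, in Crebbp-KO 0.06, 0.09 and -0.02, and in Ep300-KO 0.03, -0.21 and 0.01. Only Ep300-KO_287 stood apart, and the other 2 Ep300-KO libraries were at the WT level. In WT_4, 85 of the 86 nuclear members were above their WT mean, and in Ep300-KO_287, 81 were below it. The rise in WT_4 was shared with other sets: the median was 0.10 for the members, 0.11 for genes of the mitochondrial ribosome, 0.12 for cytosolic ribosomal protein genes, 0.10 for 580 genes with under 1500 bases of exon and a mean of at least 1000, and 0.01 for all genes.

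Ep300-KO_287 had the lowest value of all 11 libraries in 69 of 86 nuclear members, 80.2%, against 2632 of the 16515 genes tested, 15.9%. This held across the complexes: in all 13 nuclear members of complex IV, 16 of 17 of complex V, 29 of 36 of complex I, 6 of 8 of complex III and 3 of 4 of complex II, but in 2 of the 8 assembly factors. Without this library the nuclear median for Ep300-KO against WT went from -0.06 to 0.02.

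Genes outside the module did so to different degrees. Ep300-KO_287 was lowest for 62 of 78 genes of the mitochondrial ribosome, 79.5%, and for 10 of 18 glycolysis genes, 55.6%, and 8 of 18 genes of the TCA cycle, 44.4%. It was lowest for 35 of 86 cytosolic ribosomal protein genes, 40.7%. Transcript length moved with it too: among genes with a mean of at least 1000, it was lowest for 262 of 580 with under 1500 bases of exon, 45.2%, and for 1776 of 7658 longer ones, 23.2%. Within the nuclear members the shares were 83.8% of the 37 short genes and 77.6% of the 49 longer genes. The part of length or RNA quality in the place of this library was not tested. These counts were added after the library had been seen to stand apart.

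The mitochondrial genes did not follow the nuclear block. The median deviation of the 6 abundant members was -0.17, -0.13 and -0.27 in Ep300-KO_18, Ep300-KO_287 and Ep300-KO_289, so the library with the lowest nuclear values was the least low for mitochondrial genes. As a share of all deposited values, the 9 mitochondrial members took 2.46%, 2.42%, 2.64%, 2.6% and 2.52% in WT, 2.40%, 2.42% and 2.51% in Crebbp-KO, and 2.26%, 2.41% and 2.08% in Ep300-KO. The Ep300-KO shares lay below all WT shares, by a narrow margin for Ep300-KO_287, and overlapped those of Crebbp-KO.

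The nuclear members took 0.90% ± 0.03 in WT, 0.95% ± 0.05 in Crebbp-KO and 0.90% ± 0.07 in Ep300-KO (SD), with overlapping ranges. The ratio of mitochondrial to nuclear members was 2.55 to 3.08 in WT, 2.44 to 2.79 in Crebbp-KO and 2.22 to 2.94 in Ep300-KO. Its 2 lowest values among all 11 libraries were those of Ep300-KO_289 (2.22) and Ep300-KO_18 (2.40).

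**Figure D5:**
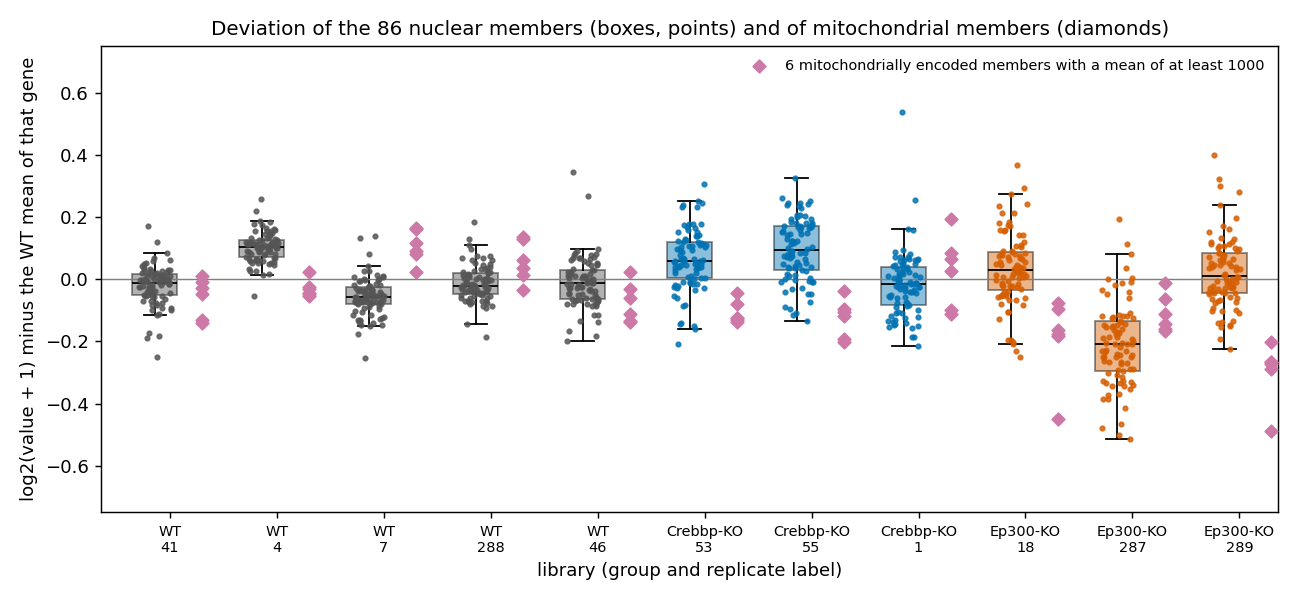
Log2(value + 1) minus the WT mean of the gene (y axis) for the 86 nuclear members (points, with boxes for median and quartiles) and the 6 mitochondrial members with a mean of at least 1000 (pink diamonds) in each library (x axis). The nuclear median is -0.21 in Ep300-KO_287 and between -0.06 and 0.10 in the other 10 libraries.

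Lists of genes around the pathway were read in the same fit. Of 38 assembly factors and electron carriers of the complexes, cytochrome c included, Chchd10, a small protein of the intermembrane space, fell in both knockouts and was the only one called. It had 6725 ± 316 in WT, 5442 ± 298 in Crebbp-KO (log2 -0.31, adjusted p = 0.028) and 4469 ± 574 in Ep300-KO (-0.60, adjusted p = 0.00047), and both knockouts lay below all WT libraries. The call in Ep300-KO was kept whichever single library was left out, and that in Crebbp-KO was lost in 5 of the 11 cases. The list medians were 0.01 and -0.09, beside 0.01 and -0.01 over all genes. The called share of the list was 2.63% in each knockout against WT, beside 8.36% and 11.9% of all genes. None of 26 genes for mitochondrial DNA and RNA upkeep, among them Tfam and Polrmt, was called in any of the 3 comparisons in limma. At an unadjusted p below 0.05 in limma there were 2 in Crebbp-KO and 4 in Ep300-KO against WT and 1 between the knockouts. Over all genes these shares were 22.6%, 25.7% and 25.0%. edgeR called 0 in each comparison, and DESeq2 called 1, in Ep300-KO against WT.

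Of 10 transcription factors and coactivators that act on respiratory genes, 3 fell in Ep300-KO against WT, where 6.09% of all genes fell. At an unadjusted p below 0.05 in limma there were also 3 of the 10, beside 25.7% of all genes. In Crebbp-KO against WT 0 were called in limma, edgeR called 0 and DESeq2 called 1. There 3 of the 10 had an unadjusted p below 0.05 in limma, beside 22.6% of all genes. Yy1 went from 16181 ± 397 to 14435 ± 280.0 (-0.16, adjusted p = 0.020), Gabpb1, a subunit of the ETS factor GABP, from 4910 ± 158 to 4275 ± 57.4 (-0.20, adjusted p = 0.023), and Nrf1 from 6534 ± 93.5 to 5870 ± 307 (-0.16, adjusted p = 0.045). Between the knockouts Yy1 (0.25, adjusted p = 0.0049) and Nrf1 (0.19, adjusted p = 0.037) were higher in Crebbp-KO, 2 of the 10 against 4.79% of all genes. The latter call of Nrf1 was lost in 7 of 11 cases when 1 library was left out (adjusted p = 0.12 without Ep300-KO_287). The call of Nrf1 against WT was lost in 10 of 11 cases when 1 library was left out, WT_46 among them, and that of Gabpb1 in 4, with an adjusted p of 0.084 without Ep300-KO_18. That of Yy1 was lost in 2, without Ep300-KO_18 (0.079) or Ep300-KO_287 (0.057).

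Of the fuel supply genes, the called shares lay on both sides of the background. For the TCA cycle they were 5.56% in Crebbp-KO and 5.56% in Ep300-KO against WT, and for glycolysis 5.56% and 16.7%, where 8.36% and 11.9% of all genes were called. Between the knockouts both lists had 2 of 18 called, 11.1% against 9.42%. The call of Suclg2 between the knockouts was lost without Ep300-KO_18 (adjusted p = 0.098 in limma). Of 18 TCA cycle genes, Pcx, which makes oxaloacetate from pyruvate, rose in Crebbp-KO from 522 ± 30.2 to 880 ± 75.6 (log2 0.75, adjusted p = 0.00057), and Suclg2, a subunit of succinyl-CoA ligase, fell in Ep300-KO from 5532 ± 564 to 3864 ± 384 (-0.52, adjusted p = 0.0058). Of 18 glycolysis genes, the phosphofructokinase gene Pfkp fell in Crebbp-KO (-0.53) and in Ep300-KO (-0.31). In Ep300-KO the glucose transporter gene Slc2a3 rose from 1285 ± 211 to 2110 ± 207 (0.73) and the hexokinase gene Hk2 from 2393 ± 162 to 2864 ± 55.6 (0.26). The transporter gene Slc2a1 differed between the knockouts (0.32 higher in Crebbp-KO) and was not called against WT. When 1 library was left out, the calls were lost in 8 of 11 cases for Hk2, 7 for Pfkp in Ep300-KO and 5 for Slc2a1, each of them without Ep300-KO_18 (adjusted p = 0.10, 0.061 and 0.096) and the first 2 also without WT_46 (0.067 and 0.062). Slc2a1 reached an adjusted p of 0.14 without Crebbp-KO_53.

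Of 78 genes of the mitochondrial ribosome, which translates the mitochondrial members, Mrpl52 fell in Crebbp-KO (-0.34) and Mrps18a and Mrps28 fell in Ep300-KO (-0.46 and -0.28). These calls make up 1.28% and 2.56% of the list, where 4.88% and 6.09% of all genes fell. In the direct comparison 6 of the 78 were higher in Crebbp-KO, 7.69% against 4.79% of all genes, led by Mrps18a (0.56) and Mrps14 (0.28), and 0 were lower. When 1 library was left out, the call of Mrps14 was lost in 3 of 11 cases, Mrps18c in 5 and Mrpl18 in 7, all 3 of them without Ep300-KO_287, which was lowest for 62 of the 78. That of Mrpl18 was also lost without Ep300-KO_18 (adjusted p = 0.0501 in limma). Against WT the call of Mrps28 was lost in 10 cases, Ep300-KO_18 (adjusted p = 0.064) and WT_46 (0.077) among them, and that of Mrpl52 in 4. None of 20 mitochondrial tRNA and rRNA genes was called in limma or edgeR, with medians of -0.19 in Crebbp-KO and -0.71 in Ep300-KO against WT. At an unadjusted p below 0.05 in limma there were 1 and 9 of the 20, beside 22.6% and 25.7% of all genes, and DESeq2 called 2 and 5. tRNAs are too short to be sampled well by this kind of library.

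Promoter sequence was read for letters of factors known to bind near respiratory genes. The RefSeq table for GRCm38.p6 held windows for 72 of the 86 nuclear members, each 250 bases before and 50 after a start. 4 sets of letters were searched on both strands: GCGCATGCG for NRF1, CCGGAAG for ETS factors such as GABP, AAGATGGCG for YY1 and TGACGTCA for CREB, the factor after which CBP is named. The ETS and YY1 letters can share the letters AAG where they adjoin, and the other pairs were counted independently. The NRF1 letters were in 10 of 72 members, 13.9%, against 1.95% of all 27025 symbols with windows and 4.16% of those tested. ETS letters were in 18 members, 25.0%, against 9.93% and 20.4%, and YY1 letters in 8, 11.1%, against 1.64% and 3.52%. CREB letters were in 4 members, Ndufa10, Ndufa11, Ndufb2 and Uqcrfs1, 5.56% against 2.03% and 3.58%.

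The 2 complex I genes called in opposite directions in Ep300-KO are shown here, with matched letters in capitals and only the 250 bases before the start. Ndufa11 holds a CREB match and, nearer to the start, an NRF1 match. Ndufa6 holds none of the 4.
Ndufa11 (chr17:56717512-56717761, plus strand): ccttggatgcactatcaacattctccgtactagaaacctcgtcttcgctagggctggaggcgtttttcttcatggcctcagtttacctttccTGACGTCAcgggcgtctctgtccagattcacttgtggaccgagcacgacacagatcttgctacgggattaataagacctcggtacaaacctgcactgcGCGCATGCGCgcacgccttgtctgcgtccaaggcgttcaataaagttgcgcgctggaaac
Ndufa6 (chr15:82354292-82354541, minus strand): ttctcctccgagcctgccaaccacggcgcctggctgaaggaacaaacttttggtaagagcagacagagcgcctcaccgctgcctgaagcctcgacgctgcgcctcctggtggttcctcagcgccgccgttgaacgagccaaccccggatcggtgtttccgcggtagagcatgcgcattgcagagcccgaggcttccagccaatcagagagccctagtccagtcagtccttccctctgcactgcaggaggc

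Uqcrq had no window. Of the other called members, Sdhb had an ETS match at or after its start, and Atp5g3 had none of the 4. Ndufa11 fell and was 1 of 4 members with the CREB letters; the other 3 had log2 differences in Ep300-KO against WT that were not called. A match describes letters, not a bound site.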

How the data were processed

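Values were deposited by the authors as DESeq2-normalized read counts per gene, a signal with no unit per length. The submitters' processing notes name CASAVA 1.8, HISAT2, featureCounts, DESeq2 and mm10, without versions for the other tools, and the settings for reads with several matching places and for strand are not given in the sources used here. Per the labels' protocols, total RNA was extracted with NucleoSpin RNA XS and libraries were made with TruSeq RNA v2. In each library 100% of the values were whole multiples of 1 read (tolerance 1e-06), giving 53550726 to 132861266 reads per library, and no 2 libraries agreed within sampling noise.

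limma 3.58.1 in R 4.3.3 was fitted with a trend to log2(value + 1) of the 16515 genes with a mean of at least 10, all 11 libraries in 1 fit with a mean per group, two-sided, with Benjamini-Hochberg adjustment over all of these genes. Fold changes are on that scale, which understates those of low genes. edgeR 4.0.16 and DESeq2 1.42.0 were run on the recovered whole reads as alternatives. The limma script was tested on simulated data, with changes larger than any called among the members and no shift of a single library. That test therefore cannot speak to calls as small as those of the members. Lengths, coordinates and shared windows come from GENCODE M21 on GRCm38, the assembly behind mm10, and promoter windows from RefSeq.

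Named genes are the called members, the mitochondrial protein genes, the highest nuclear member per complex, the isoform pairs, the genes beside the threshold, up to 4 called genes per list and comparison, and the targeted genes. The members and lists were chosen with earlier results of these data known.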

Additional observations from a re-analysis of the deposited data

Results flagged for a closer look

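Values of WT_4 stood apart from the other 4 WT libraries in 3 of the 43 groups of values checked, and chance alone gives about 1 in 20. They were 13056 normalized reads for Cox6b1, where the others had 11428 to 11864, 8676 for Atp5g2 (7697 to 7968) and 2829 for Mrps14 (2606 to 2658). WT_4 also had the highest nuclear median among the WT libraries.

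The effects of the 2 knockouts differed by the direct comparison in limma for 4 members. The Crebbp-KO effect minus the Ep300-KO effect was 0.22 for Atp5g3, 0.63 for Cox6c2, 0.26 for Ndufa11 and -0.25 for Ndufa6 on the log2 scale, with adjusted p-values of 0.048, 0.045, 0.046 and 0.032.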

How the results depend on the processing

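No paired analysis was possible because no number in the labels recurs between groups. For Crebbp-KO against WT, where limma called 0 members, other settings called 1 with quantile normalization (Atp5a1), 1 with only the 2 groups compared (Uqcrb), 2 with equal sums over nuclear genes, 2 with DESeq2 and 4 with weights per library, all nuclear and higher. For Ep300-KO against WT, where it called 5, quantile normalization called 6, of which 2 were higher (Ndufa6 and Sdha). Equal sums over nuclear genes called 7, of which 3 were higher (Ndufa6, Sdha and Uqcrb). DESeq2 called 9, and 3 remained without WT_46 and Ep300-KO_18. Mitochondrial calls there were 2 with a pseudocount of 0.5 or with weights, 3 with DESeq2 and 0 without those 2 libraries. Between the knockouts (4 called), counts were 1 without a filter on low values, 0 with only the 2 groups, 7 with DESeq2, 8 with weights (7 nuclear and 1 mitochondrial, also 1 mitochondrial with DESeq2) and 1 without WT_46 and Ep300-KO_18. The cause was not tested.

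Leaving out 1 library gave 0 to 1 members called (nuclear 0 to 1) for Crebbp-KO, 3 to 5 (nuclear 2 to 5, mitochondrial 0 to 1) for Ep300-KO and 0 to 4 (nuclear 0 to 4, mitochondrial 0 to 1) between the knockouts. For Ep300-KO the median over all members then ranged from -0.11 to 0.0157 and over nuclear complex I from -0.10 to 0.0395. Between the knockouts it ranged from 0.0108 to 0.15 for nuclear members, 0.00779 to 0.16 for the 9 mitochondrial members and 0.0137 to 0.17 for nuclear complex IV. The upper ends for Ep300-KO and the lower nuclear ends between the knockouts came without Ep300-KO_287. The median of the complex I assembly factors in Ep300-KO, 0.0035, became -0.048 with quantile normalization and -0.050 without WT_46 and Ep300-KO_18.

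Quantile normalization turned the small Crebbp-KO differences of mt-Cytb (0.0769), mt-Nd2 (0.0392) and mt-Nd4 (0.0111) positive, and equal sums over nuclear genes did so for mt-Nd2 (0.00178), which ranged from -0.12 to 0.0377 when 1 library was left out. Quantile normalization sets mt-Co1, the highest value in each library, equal by construction. Counting every mitochondrially encoded gene, mt-Cytb included, the mitochondrial share was 3.10%, 3.01% and 2.80% of all values in WT, Crebbp-KO and Ep300-KO, and the ratio to nuclear members 3.46, 3.17 and 3.13. As a percentage of nuclear values, the Crebbp-KO share was 2.52%.

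Groups of 3 limit what small changes can be called, and gene-level counts of the mitochondrial genes depend on how reads with several matching places were treated.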
